A study of Homo sapiens with 8 samples.

Results

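The CXC chemokines are small secreted proteins that draw leukocytes along a concentration gradient, and 10 of their genes were followed here in MCF10A cells, an immortal line of non-tumorigenic breast epithelium, with and without p53 after doxorubicin (adriamycin, ADR). The members were CXCL1, CXCL2, CXCL3, CXCL5, CXCL6, CXCL8 (also known as IL8), CXCL10, CXCL11, CXCL14 and CXCL16, out of 20296 genes that a probe could be assigned to. They were matched by RefSeq accession or symbol, and each gene was represented by the probe with the highest mean level over all 8 arrays, so the probes were selected on measured levels. The genes themselves were chosen by family membership with earlier results of these arrays known, among them the genotype difference of CXCL5. All 10 members had a probe, and 7 of them read well above background on at least 1 array. CXCL6, CXCL10 and CXCL11 did so on none, and no fold is given for them.

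The groups were MCF10A p53+/+ and MCF10A p53-/- cells, untreated at 0 h or harvested at 12, 24 and 48 h after 2 h with doxorubicin at 0.5 μg/ml, as the sample labels state it (the study's methods give another dose). There was 1 single-colour array for each genotype and time point. How the p53-/- line was derived, and whether it is 1 clone, is not given in the sources used here. All 8 arrays lay on 1 slide, with the genotypes in separate columns of positions, and a position effect cannot be told apart from genotype.

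Levels are log2 of the processed signal minus log2 of that array's 75th percentile, which ran from 661 to 1199 signal units, so that 0 means the 75th percentile and each unit of difference is 2-fold. A technical SD, from probes printed in 10 spots of one array, is given with single differences. It covers spot-to-spot error on an array but not differences between cultures. The shift of the median of all genes between genotypes was at most 0.10 at any treated time point. The p53+/+ 48 h array stood apart from the rest: it had the lowest 75th percentile, 661, and 0 of its 10 probes for spiked-in control RNA were above background, against 6 of 10 on each of the other 7 arrays. Without the 48 h arrays the treated differences between p53+/+ and p53-/- cells were -7.83 for CXCL5 (SE 0.30, limma adjusted p = 0.0117), -3.67 for CXCL8 (SE 0.21, limma adjusted p = 0.0132) and 2.60 for CXCL16 (SE 0.22, limma adjusted p = 0.0204), and these genes still passed. CXCL8 was not well above background on the treated p53+/+ arrays, so its difference is that of fitted values and not a measured fold.

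The array labelled p53+/+ 0 h stood apart from its genotype. Over all probes it correlated at r = 0.967 to 0.986 with the p53-/- arrays and at 0.944 to 0.960 with the treated p53+/+ arrays. DCN, a matrix proteoglycan, read 5.75 on it, against 5.70 to 6.07 on the p53-/- arrays and 2.09 to 2.37 on the treated p53+/+ arrays. CDKN1A, a cell cycle inhibitor and classical p53 target, averaged 2.62 in treated p53+/+ and -0.69 in treated p53-/- cells, and MDM2, which p53 induces and which degrades it, averaged 1.51 and -1.64. Results that rest on the array labelled p53+/+ 0 h therefore stand apart below, and the main comparison was made between treated p53+/+ and treated p53-/- cells, so that neither 0 h array enters it.

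The cells also differed in markers of other cell types. Basal mammary epithelial markers were well above background on every array (8 or 9 of 9). Their summed level, in multiples of the 75th percentile, was 467 to 680 on treated p53+/+ arrays and 234 to 289 on treated p53-/- arrays. Of 7 fibroblast markers, 1 was well above background on each treated p53+/+ array and 4 or 5 on each treated p53-/- array, with summed levels of 4.34 to 5.26 and 52.4 to 67.3. Nearly all of that sum was DCN: the other fibroblast markers summed to 0.0724 to 0.0768 on treated p53+/+ arrays and 0.329 to 0.599 on treated p53-/- arrays. COL1A1 and LUM, also on that list, were well above background on all 3 treated p53-/- arrays and on 0 of 3 treated p53+/+ arrays. COL1A2 and COL3A1 were not well above background on any treated array. Endothelial markers summed to 0.170 to 0.249 and 0.337 to 0.546, and leukocyte markers to 3.92 to 4.98 and 6.36 to 9.28. These gaps leaned on single genes. Without CD14, the highest leukocyte marker, the sums overlapped, at 1.36 to 2.51 and 2.43 to 3.27. Mean log2 differences of the endothelial markers were -3.54 for PECAM1, -1.07 for TEK, -0.07 for VWF and 0.22 for CDH5. Luminal markers summed to 0.990 to 1.21 in treated p53+/+ and 0.374 to 0.710 in treated p53-/- cells. The part of these marker differences in the chemokine differences was not tested. In bulk RNA, fewer cells of a type and less RNA per cell cannot be told apart.

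CXC chemokines are named for a pair of cysteines separated by one residue. Members that carry the tripeptide Glu-Leu-Arg (ELR) just before it, here CXCL1, CXCL2, CXCL3, CXCL5, CXCL6 and CXCL8, bind the receptors CXCR1 or CXCR2 and attract neutrophils. CXCL10 and CXCL11 lack it, are induced by interferon and attract T cells through CXCR3. CXCL14 is made by many epithelia, and CXCL16 is a membrane-bound ligand of CXCR6 that the protease ADAM10 can shed. Transcription of the ELR genes is a textbook response to NF-kB, and the grouping by ELR used here is background, not read from these files.

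The promoters of the ELR members are shown because these genes lie close together and differed widely in these cells. Their promoters were alike within CXCL1, CXCL2 and CXCL3 (70.4% to 81.4% identical over the aligned 250 bases) and between CXCL5 and CXCL6 (85.3%), while that of CXCL8 was 42.0% to 45.4% identical to those of the other ELR members. RefSeq promoters were found for 9 of the 10 members, and CXCL16 had none in the table used. The lines give the 140 bases that end just before each gene start, read 5′ to 3′ on the gene's strand (GRCh38.p14). Capitals mark matches to the NF-kB consensus (searched on both strands), to the AP-1 site TGACTCA (both strands) or to the TATA box TATAAA (gene strand). CXCL1 is shown for chr4:73869253-73869392 (plus strand), CXCL2 for chr4:74099196-74099335 (minus), CXCL3 for chr4:74038690-74038829 (minus), CXCL5 for chr4:73998678-73998817 (minus), CXCL6 for chr4:73836538-73836677 (plus) and CXCL8 for chr4:73740429-73740568 (plus).
CXCL1: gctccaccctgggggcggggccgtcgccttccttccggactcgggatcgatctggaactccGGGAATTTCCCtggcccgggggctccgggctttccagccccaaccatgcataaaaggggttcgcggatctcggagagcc
CXCL2: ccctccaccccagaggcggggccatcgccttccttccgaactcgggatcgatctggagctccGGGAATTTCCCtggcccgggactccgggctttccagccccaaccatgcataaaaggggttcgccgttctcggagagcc
CXCL3: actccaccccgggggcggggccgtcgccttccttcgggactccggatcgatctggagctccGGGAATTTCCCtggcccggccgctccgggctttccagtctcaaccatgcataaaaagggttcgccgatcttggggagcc
CXCL5: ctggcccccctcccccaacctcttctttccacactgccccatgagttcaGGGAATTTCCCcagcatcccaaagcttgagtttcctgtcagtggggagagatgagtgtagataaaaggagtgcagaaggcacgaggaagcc
CXCL6: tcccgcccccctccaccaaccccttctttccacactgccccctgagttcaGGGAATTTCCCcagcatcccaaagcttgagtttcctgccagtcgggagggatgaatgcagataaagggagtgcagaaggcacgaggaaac
CXCL8: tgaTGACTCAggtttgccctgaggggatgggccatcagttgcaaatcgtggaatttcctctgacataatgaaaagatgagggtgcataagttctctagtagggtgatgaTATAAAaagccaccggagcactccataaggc

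CXCL1, CXCL2, CXCL3, CXCL5 and CXCL6 each held GGGAATTTCC between positions -91 and -69 from the gene start, where it overlapped a second match on the other strand shifted by 1 base. Over the 250 bases before the start, 7 of 9 members held an NF-kB consensus match (also CXCL10, with 2 separate matches, and CXCL11), against 9.96% of 35116 promoters in the table. Within CXCL1, CXCL2 and CXCL3, and within CXCL5 and CXCL6, the promoters are related sequences, so these matches are not independent. CXCL8 held TGACTCA from -137 to -131 and TATAAA from -31 to -26, and no NF-kB consensus match in this window. TGACTCA was also found in CXCL11, and on the minus strand in CXCL14 (3 of 9 members, against 4.20% of promoters), and TATAAA in CXCL11 (2 of 9, against 6.80%). The core of the interferon-stimulated response element (ISRE) was in CXCL10 alone of the 9 (3.02% of promoters). The p53 half-site consensus (5.57% of promoters) and the C/EBP site (2.39%) were found in 0 of 9. A match is a description of letters and not evidence of binding. Only exact matches were counted, so the lack of one is not evidence against binding.

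**Figure D1:**
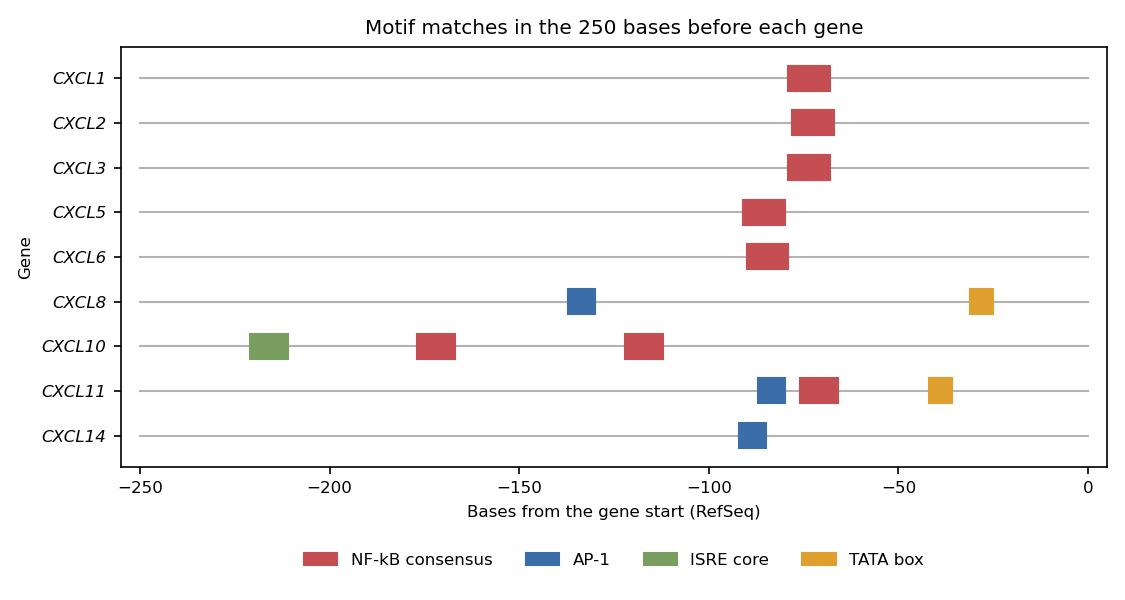
Motif matches (coloured boxes) by distance in bases from the RefSeq gene start, for the 9 members with a promoter; each grey line is the 250 bases before the start. The NF-kB consensus sits at nearly the same distance in CXCL1, CXCL2, CXCL3, CXCL5 and CXCL6. CXCL8 has no exact match to it, and its AP-1 and TATA matches lie at other distances.

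In treated cells, the ELR chemokine CXCL5 was far lower in p53+/+ than in p53-/- cells (log2 difference -7.51), and CXCL8 was at least 2.92-fold lower. CXCL16 was 6.81-fold higher in p53+/+ cells. CXCL1 and CXCL3 read lower in p53+/+ at all 3 time points but missed the threshold, which the other CXCL1 probe passed (limma adjusted p = 0.0248). CXCL14 changed direction between time points. So did CXCL2 by its brighter probe, while its other probe read lower in p53+/+ at all 3. Of the 7 members tested, 2 were lower (6.50% of 28947 probes were) and 1 was higher (8.88% of probes were) by limma at an adjusted p of 0.05. Counted by gene, each by its brightest probe as for the members, 1274 of 15811 genes were lower and 1579 higher. The test used the 6 treated arrays with the 3 time points in place of replicates, so its error is the spread of the genotype difference over time. The median difference of the 7 was -1.62, against 0.05 over 15811 genes tested. Under the size rule, CXCL3, CXCL5 and CXCL8 were at least 2-fold lower at all 3 time points (5.79% of 15669 genes were), and CXCL16 at least 2-fold higher (6.34%). The same 3 and the same 1 did not overlap between the genotypes over the treated arrays (20.0% of genes lay lower and 24.6% higher without overlap). CXCL5 was among the results already known when the members were chosen, so its test is no independent support.

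**Figure D2:**
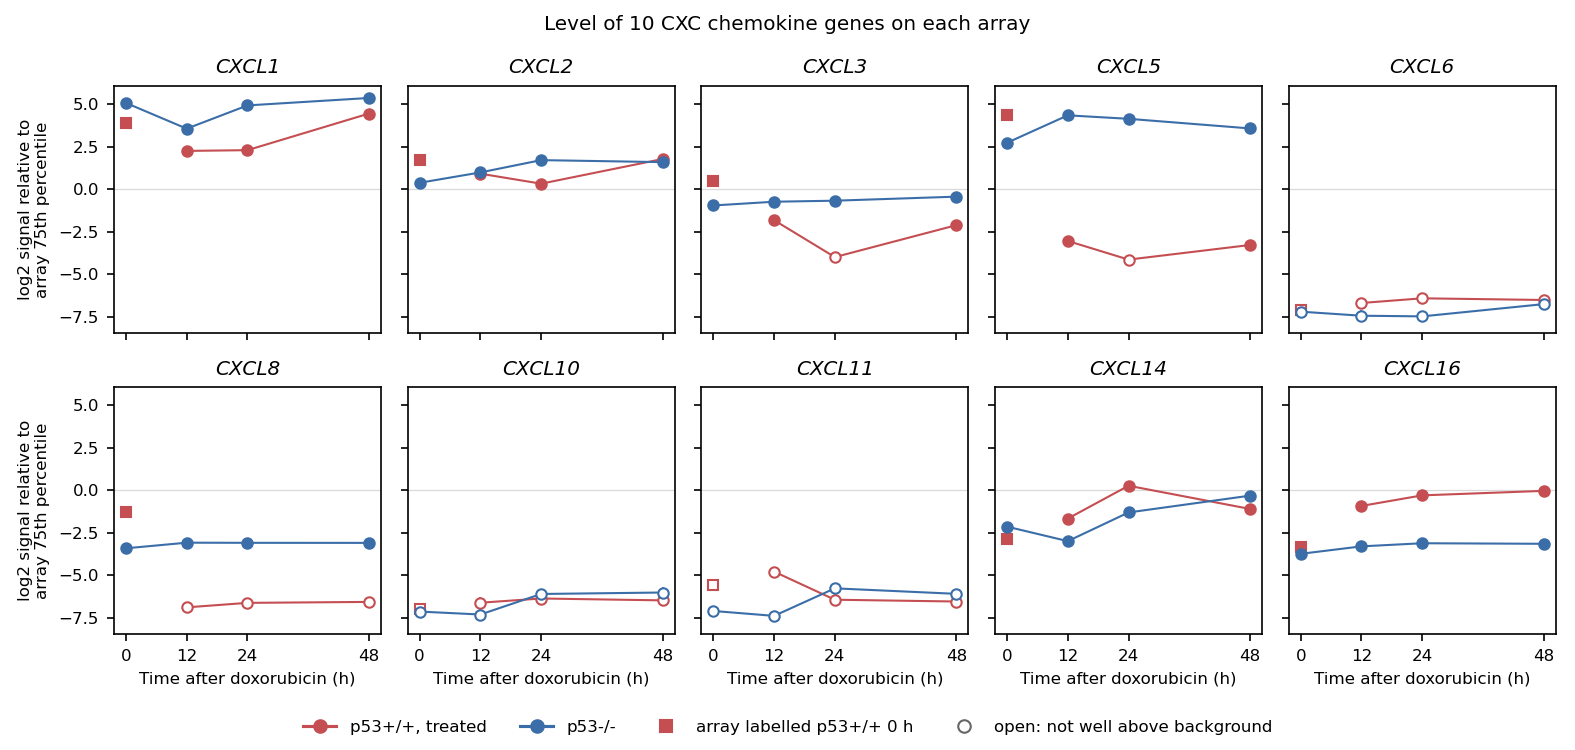
Level of each member (log2 signal relative to the array's 75th percentile) against hours after doxorubicin, 1 array per point, with technical SD bars mostly smaller than the symbols; red, p53+/+; blue, p53-/-; square, the array labelled p53+/+ 0 h; open symbols, not well above background. CXCL5 and CXCL8 separate downward and CXCL16 upward in treated p53+/+ cells, and CXCL6, CXCL10 and CXCL11 are open throughout.

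CXCL5, a neutrophil attractant of epithelial cells, read -3.05, -4.15 and -3.29 at 12, 24 and 48 h in treated p53+/+ cells and 4.34, 4.13 and 3.57 in treated p53-/- cells. In processed signal this was 98.7, 46.1 and 67.8 units against 22596, 19998 and 14208. All 3 p53+/+ values lay far below all 3 p53-/- values. The p53+/+ signal was 167-fold lower at 12 h (log2 -7.39, technical SD 0.15), at least 310-fold lower at 24 h, where it was not well above background, and 116-fold lower at 48 h (-6.85, technical SD 0.15). The fitted difference was -7.51 (SE 0.32, limma adjusted p = 0.00331), the most negative of 15669 genes on this scale. In p53-/- cells CXCL5 stood at 2.72 at 0 h and 3.06-, 2.65- and 1.79-fold above that after doxorubicin, so it fell short of 2-fold at 48 h only.

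CXCL8, the main neutrophil chemokine of human epithelia, was at background on the 3 treated p53+/+ arrays (-6.88, -6.62 and -6.56). In p53-/- cells it was nearly flat, at -3.41 at 0 h and -3.08, -3.09 and -3.09 after treatment, or 82.7 to 141 processed units. The bounds at 12, 24 and 48 h were at least 3.23-, 2.67- and 2.89-fold lower in p53+/+ cells. The fitted difference of -3.60 (SE 0.18, limma adjusted p = 0.00406) rests on p53+/+ signals at background and is no measure of size. The changes of 1.25- to 1.26-fold from 0 h in p53-/- cells were within 2 technical SDs (0.20 each).

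CXCL3 read -1.83, -4.0 and -2.12 in treated p53+/+ cells and -0.74, -0.68 and -0.44 in treated p53-/- cells. The groups did not overlap, but the p53+/+ arrays spread over more than 2 log2 units, with the 24 h array not well above background. The signal was 2.12-fold lower at 12 h, at least 9.96-fold lower at 24 h and 3.20-fold lower at 48 h. The fitted difference of -2.03 (SE 0.47) did not pass (limma adjusted p = 0.0544). In p53-/- cells CXCL3 rose by at most 1.43-fold from 0 h.

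CXCL1, which like CXCL2 and CXCL3 belongs to the GRO group of CXCR2 ligands, read 2.25, 2.29 and 4.44 in treated p53+/+ cells and 3.55, 4.92 and 5.36 in treated p53-/- cells. The p53+/+ value was the lower at each time point, by 2.47-, 6.19- and 1.89-fold, yet the ranges overlapped because CXCL1 climbed between 12 and 48 h in both genotypes, 4.58-fold in p53+/+ and 3.49-fold in p53-/- cells. The fitted difference was -1.62 (SE 0.38, limma adjusted p = 0.0563). The other CXCL1 probe gave -1.90 (SE 0.30) and passed (limma adjusted p = 0.0248). At 12 h CXCL1 in p53-/- cells was 2.85-fold below its 0 h level, then 1.11-fold below it at 24 h and 1.22-fold above it at 48 h.

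Both CXCL1 and CXCL3 passed the threshold under most other settings, CXCL1 in 8 of 12 and CXCL3 in 7 of 11, with median scaling, quantile normalization and no scaling among them for each. Neither passed with any 1 treated time point left out (limma adjusted p = 0.0657 to 0.178 for CXCL1 and 0.0530 to 0.147 for CXCL3). CXCL1 also missed it without the time term (limma adjusted p = 0.168), and CXCL3 with the mean of all probes (limma adjusted p = 0.0503). All settings reuse the same arrays, so their number is no further support.

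CXCL2 read 0.91, 0.32 and 1.77 in treated p53+/+ cells and 0.98, 1.70 and 1.58 in treated p53-/- cells. The genotypes differed by 2.61-fold at 24 h, with p53+/+ lower, and by at most 1.14-fold at 12 and 48 h. The fitted difference was -0.43 (SE 0.36, limma adjusted p = 0.453). The other CXCL2 probe read -0.01, -0.43 and 0.97 against 0.79, 1.60 and 1.92, lower in p53+/+ at each time point, with a difference of -1.26 (SE 0.31, limma adjusted p = 0.0602). The probes of CXCL2 thus disagreed on the size of the difference and, at 48 h, on its direction. As CXCL1, CXCL2 and CXCL3 are closely related genes, a probe for one may also bind transcripts of another, which was not tested.

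CXCL16, the transmembrane chemokine, read -0.92, -0.30 and -0.03 in treated p53+/+ cells and -3.30, -3.11 and -3.15 in treated p53-/- cells. Its p53+/+ arrays all lay above the p53-/- arrays, by 5.20-, 7.04- and 8.64-fold at 12, 24 and 48 h (technical SD 0.15 each). The fitted difference was 2.77 (SE 0.22, limma adjusted p = 0.00694). It did not pass without the 24 h arrays (2.74, SE 0.35, limma adjusted p = 0.0640). Within treated p53+/+ cells the 48 h level was 1.85-fold that at 12 h (log2 0.88, technical SD 0.08), while in p53-/- cells it was 1.11-fold (0.15, technical SD 0.20). From the p53-/- 0 h level of -3.74, p53-/- cells gained 1.36- to 1.54-fold.

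CXCL14, an epithelial chemokine for monocytes and dendritic cells, crossed over in time. It read -1.66, 0.27 and -1.10 in treated p53+/+ cells, highest at 24 h, and -2.99, -1.30 and -0.32 in treated p53-/- cells, highest at 48 h. It was 2.51- and 2.97-fold higher in p53+/+ cells at 12 and 24 h and 1.72-fold lower at 48 h, each several times its technical SD (0.13, 0.09 and 0.09). The fitted difference over time was 0.70 (SE 0.52, limma adjusted p = 0.388), and without the 48 h arrays it was 1.45 (SE 0.20, limma adjusted p = 0.0381). In p53-/- cells CXCL14 rose 6.39-fold from 12 to 48 h.

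The 3 members at background gave no level on any array. CXCL6 ran from -7.48 to -6.42. Its promoter is the closest to that of CXCL5 among those shown, and it was at background on the p53-/- arrays where CXCL5 was bright. CXCL10 ran from -7.30 to -6.01 and its other probe was also at background on all 8 arrays. CXCL11 ran from -7.38 to -4.78, and its spots on the array labelled p53+/+ 0 h differed by 3.15 log2 units.

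**Figure D3:**
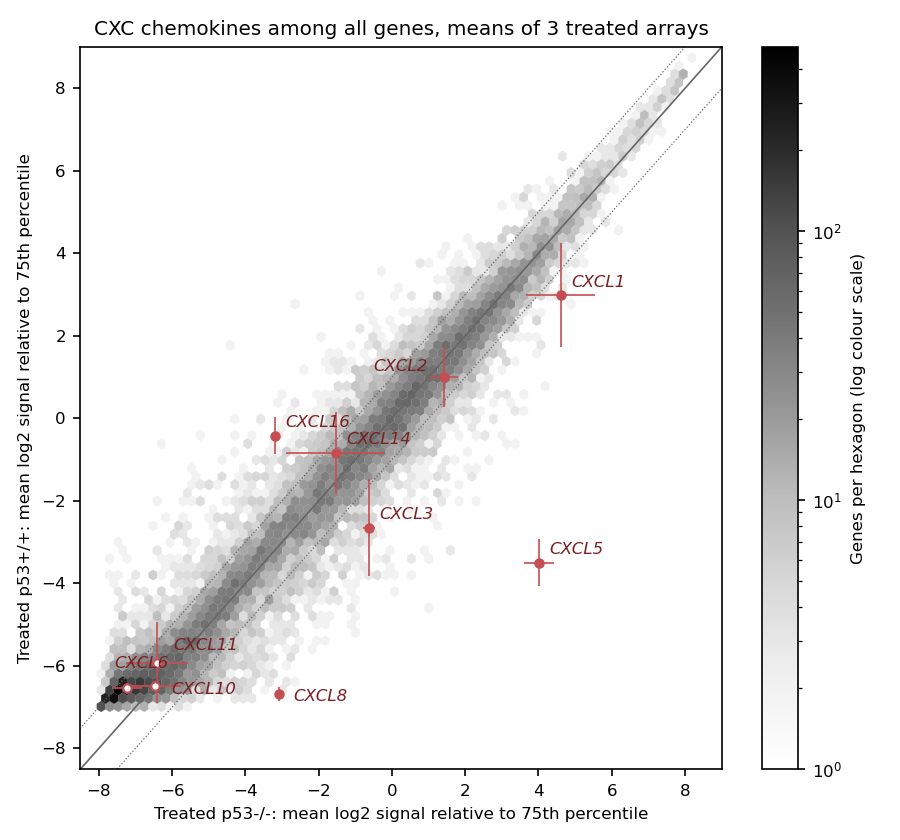
Mean level in treated p53+/+ cells (y) against treated p53-/- cells (x), each the mean of 3 arrays in log2 units relative to the 75th percentile; grey hexagons count genes on a log colour scale, red points are the members with SD bars over the 3 time points, open where at background on all 6 arrays, and dotted lines mark 2-fold. CXCL5 lies farthest below the diagonal of the 15669 genes above background on a treated array, and CXCL16 lies above the upper 2-fold line.

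In the p53-/- time course, 0 of 7 members stayed at least 2-fold above the 0 h array at all 3 time points (2.65% of 15470 genes did) and 0 of 7 stayed below it (2.08%). The nearest to the rule was CXCL5, above. CXCL2 was 1.52-, 2.52- and 2.32-fold above 0 h by its brighter probe, which the other probe did not show (0.79, 1.60 and 1.92 against 1.32 at 0 h). CXCL14 was 1.81-fold below 0 h at 12 h and 3.54-fold above it at 48 h.

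Against the array labelled p53+/+ 0 h, 3 members (CXCL3, CXCL5 and CXCL8) read at least 2-fold lower in p53+/+ cells at all 3 time points (6.86% of 14353 genes did), and CXCL14 and CXCL16 at least 2-fold higher (9.04%). CXCL5 stood at 4.33 on that array and was 167-fold lower at 12 h, at least 356-fold lower at 24 h and 196-fold lower at 48 h. CXCL8 stood at -1.25 there, and was at least 11.5-, 9.52- and 10.4-fold lower after treatment. Measured from the p53-/- 0 h array instead, CXCL5 was 54.7-fold lower, at least 117-fold lower and 64.5-fold lower, and CXCL8 at least 2.57-, 2.13- and 2.32-fold lower. CXCL16 was 5.41-, 8.32- and 9.997-fold above the array labelled p53+/+ 0 h, and 7.04-, 10.8- and 13.0-fold above the p53-/- 0 h array. CXCL3 at 12 h (1.82-fold lower) and CXCL14 at 12 h (1.39-fold higher) fell short of 2-fold against that second baseline.

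At 0 h itself, the array labelled p53+/+ 0 h was higher than the p53-/- 0 h array for 4 of 7 members (3.80% of 13878 genes were at least 2-fold higher): CXCL2 by 2.54-fold, CXCL3 by 2.72-fold, CXCL5 by 3.05-fold and CXCL8 by 4.46-fold. It was lower for 1 of 7, CXCL1, by 2.24-fold (5.07% of genes were). The other CXCL2 probe read 1.56 and 1.32, so only its brighter probe met the rule. CXCL16 differed by 1.30-fold and CXCL14 by 1.68-fold. These are single arrays with no test, and the direction for CXCL3, CXCL5 and CXCL8 was the opposite of that in treated cells.

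The genes CXCL8, CXCL6, PF4V1, CXCL1, PF4, PPBP, CXCL5, CXCL3 and CXCL2 follow one another on chromosome 4 with no other protein-coding gene between them (9 of 9, in RefSeq order). The 3 that are not members encode platelet chemokines. Of these, PF4 (CXCL4) was the one measured. It read -1.04, -1.88 and -3.31 in treated p53+/+ cells and 0.96, 1.18 and 0.57 in treated p53-/- cells, or 4.02-, 8.30- and 14.7-fold lower in p53+/+ (fitted difference -2.98, SE 0.39, limma adjusted p = 0.0176). Its difference was wider at 48 h than at 12 h, as it fell through the p53+/+ series while CXCL1 climbed. PF4V1 and PPBP were not well above background on any array. In the cluster 6 of 9 genes were measured, and the fitted difference of each was negative, from -7.51 for CXCL5 to -0.43 for CXCL2. CXCL8, PF4 and CXCL5 passed the test, CXCL1, CXCL3 and CXCL2 did not, and CXCL6, PF4V1 and PPBP lay at background between them. The genes were not tested against each other.

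**Figure D4:**
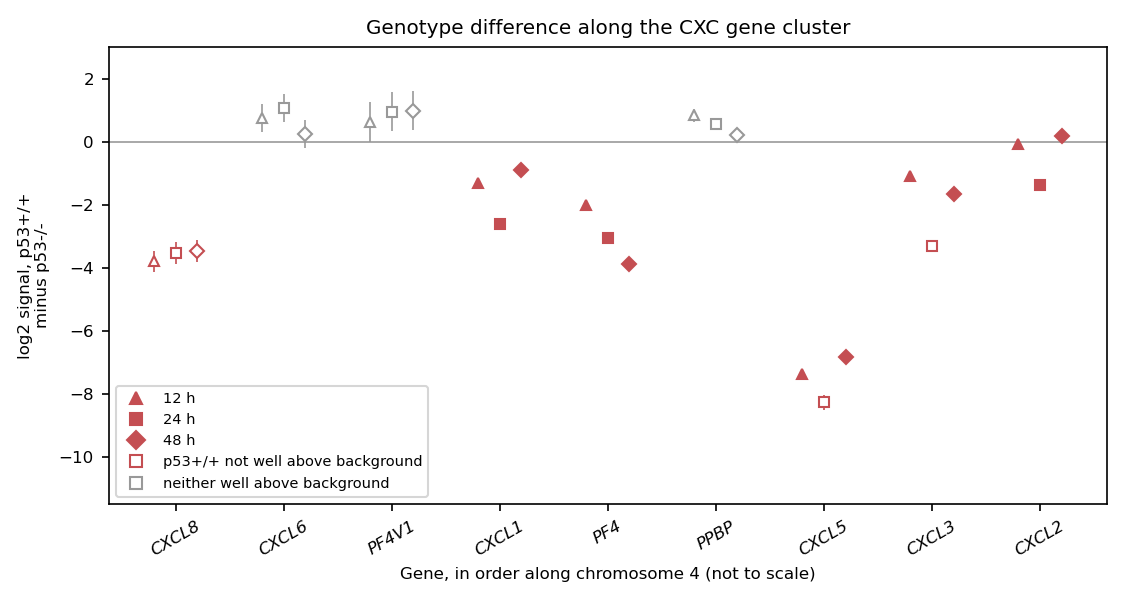
Difference in log2 signal between treated p53+/+ and p53-/- cells at 12, 24 and 48 h for the 9 genes of the cluster, in their order on chromosome 4 (not to scale), with technical SD bars. Filled symbols were measured in both genotypes, open red ones only in p53-/-, and grey ones in neither; CXCL5 reaches -8.28 while CXCL2 lies at 0.18 at 48 h.

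Other CXC ligands gave little signal. Of 7 such genes, 3 were tested and 1 (PF4) was lower (1274 of 15811 genes tested were). CXCL12, the ligand of CXCR4, was well above background only at the level of -4.32 to -4.15 on p53-/- arrays and at -4.12 on the array labelled p53+/+ 0 h, and CXCL9 on a single treated array. CXCL12 was not lower in treated p53+/+ cells. It averaged -3.91 there, not marked well above background, against -4.28 in treated p53-/- cells (limma adjusted p = 0.218). CXCL13 and CXCL17 were not tested.

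Among 8 receptor genes, 6 were tested, with a median of -0.85. Of these, 2 were lower in treated p53+/+ cells and 0 higher (1274 and 1579 of 15811 genes tested were). The 2 were scavenging receptors, which bind chemokines without classical signalling. ACKR1, which binds many inflammatory CXC and CC chemokines, read -2.51, -2.34 and -1.86 in treated p53-/- cells and was at background on the 3 treated p53+/+ arrays, at least 5.28-fold lower (limma adjusted p = 0.00863). As for CXCL8, the ACKR1 test rests on p53+/+ signals at background and is no measure of size. ACKR3, which binds CXCL11 and CXCL12, read -1.83, -1.20 and -0.70 in treated p53-/- cells and -4.84, -3.89 and -4.76 in treated p53+/+ cells, where 1 of 3 arrays measured it (fitted difference -3.25, SE 0.32, limma adjusted p = 0.0103).

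CXCR4 was 1.27-fold higher in p53+/+ cells at 12 h and 3.75- and 10.4-fold lower at 24 and 48 h, which did not pass (-1.65, SE 0.73, limma adjusted p = 0.188). CXCR2, the receptor of the ELR chemokines, was well above background on the 12 and 24 h p53+/+ arrays (-3.29 and -4.25) and the 48 h p53-/- array (-5.19), with limma adjusted p = 0.214. CXCR1, the other CXCL8 receptor, was well above background on 0 of 3 treated p53+/+ and 2 of 3 treated p53-/- arrays. CXCR3 differed by 0.06 (SE 0.19, limma adjusted p = 0.861). CXCR5 and CXCR6, the receptor of CXCL16, were at background.

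**Figure D5:**
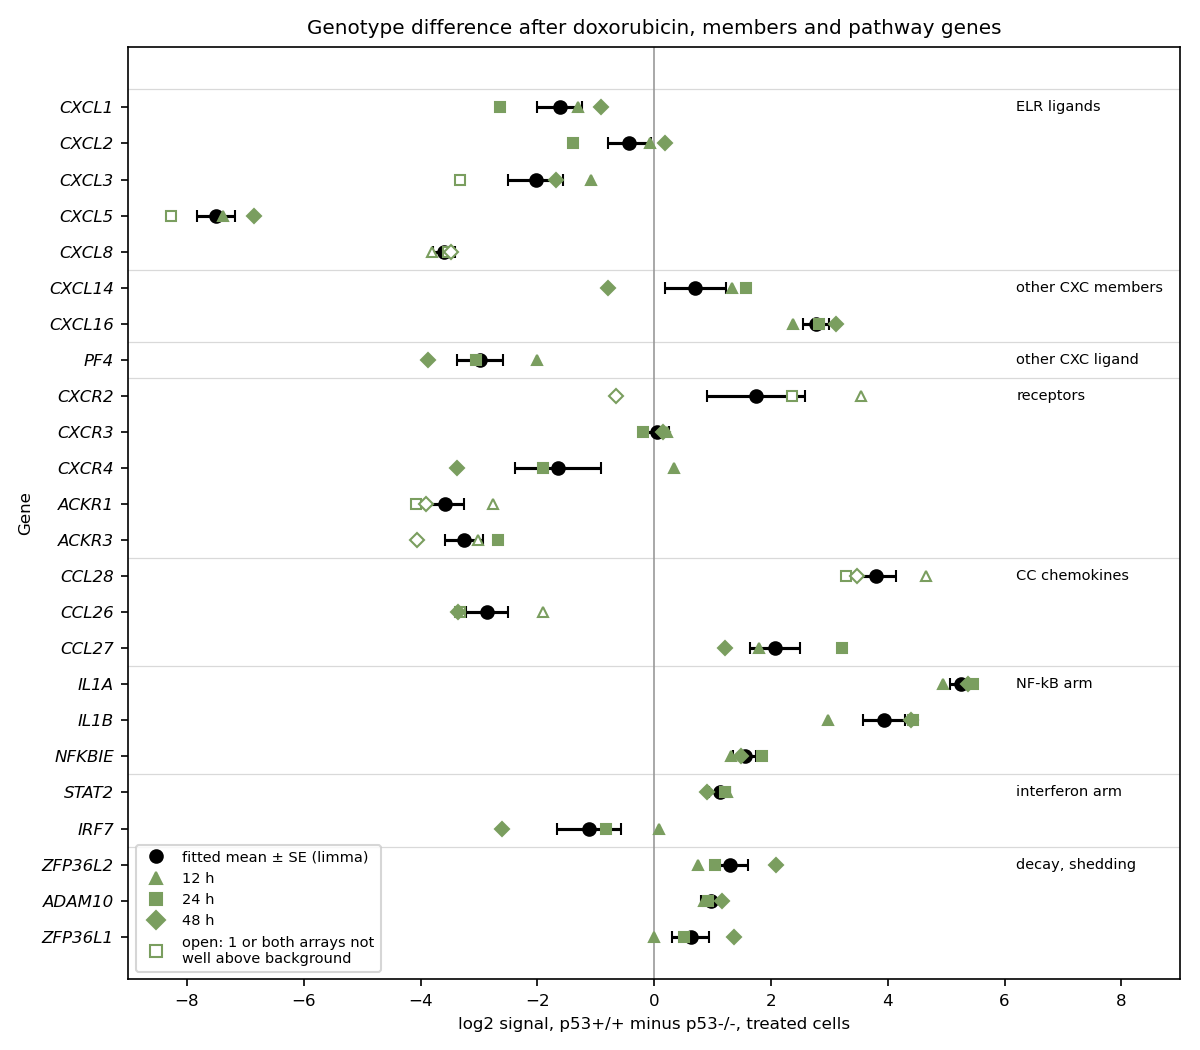
Difference in log2 signal between treated p53+/+ and p53-/- cells for the 7 members measured and for pathway genes; black, fitted mean with its SE; green, single time points, open where 1 or both arrays were not well above background. CXCL5 lies at -7.51 and IL1A at 5.26, on opposite sides of 0.

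Of 13 CC, C and CX3C chemokine genes, 8 were tested (median -0.19). In treated p53+/+ cells 1 was lower and 2 were higher (1274 and 1579 of 15811 genes tested were). CCL26, an eosinophil attractant, was lower by 2.86 (SE 0.36, limma adjusted p = 0.0159), with 1 treated p53+/+ array well above background. CCL27 and CCL28, which attract lymphocytes to skin and mucosa, were higher: CCL27 by 2.07 (SE 0.43, limma adjusted p = 0.0433) and CCL28 at least 6.49-fold (limma adjusted p = 0.00797), since it was not well above background on any p53-/- array. CCL20 differed by -0.26 (SE 0.30, limma adjusted p = 0.571).

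The NF-kB list (28 genes, all tested) held the cytokines that drive ELR chemokine genes, the adaptors, kinases and subunits, and the inhibitors. None was lower and 3 were higher in treated p53+/+ cells (1274 and 1579 of 15811 genes tested were), with a median of -0.15. The share higher was near that over all genes. IL1A and IL1B, the interleukin-1 cytokines, differed in the direction opposite to CXCL5 and CXCL8. IL1A read 2.48, 2.76 and 2.98 in treated p53+/+ cells and -2.47, -2.70 and -2.40 in treated p53-/- cells, 30.9-, 43.9- and 41.7-fold higher (fitted difference 5.26, SE 0.20, limma adjusted p = 0.00268). IL1B was 7.89-, 21.7- and 21.2-fold higher (3.94, SE 0.36, limma adjusted p = 0.00885). NFKBIE, an inhibitor of NF-kB, was higher by 1.55 (SE 0.20, limma adjusted p = 0.0168). NFKBIA, TNFAIP3 and the subunits RELA and NFKB1 did not pass.

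In the interferon list, 15 of 16 genes were tested (median -0.11). Of these, 0 were lower and 2 were higher (1274 and 1579 of 15811 genes tested were). Among them was STAT2, a signal carrier of the interferon receptors, higher by 1.12 (SE 0.19, limma adjusted p = 0.0277). IRF7 differed by -1.12 (SE 0.55, limma adjusted p = 0.221). The interferon-induced members CXCL10 and CXCL11 were at background in the same cells.

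Of 10 genes of mRNA decay and shedding (median -0.14), 0 were lower and 1 was higher (1274 and 1579 of 15811 genes tested were). This was ADAM10, the CXCL16 sheddase, at 0.98 (SE 0.18, limma adjusted p = 0.0353). ZFP36L2, which destabilises AU-rich mRNAs, differed by 1.29 (SE 0.32, limma adjusted p = 0.0615), and ZFP36L1, of the same family, by 0.62 (SE 0.31, limma adjusted p = 0.230).

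The genes whose levels over the 8 arrays were most like the mean of the 6 ELR members were ITGB3, RPP40, AMIGO2, APC2 and EEF1E1 (Pearson r 0.980 to 0.987 over 8 arrays, and 0.976 to 0.985 without the array labelled p53+/+ 0 h), among 3090 genes with a range of at least 2 log2 units. For CXCL16, looked at after its values were seen, they were PAQR7, KIAA0040, CROT, KANK3 and FAM83F (r 0.994 to 0.998). The arrays share the 2 genotypes and the treatment, and these correlations are a description. The ELR mean is weighted toward CXCL5 and CXCL8, which ranged over 8.48 and 5.63 log2 units, against 1.45 for CXCL2. It also includes CXCL6, which was at background throughout.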

How the data were processed

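The authors deposited the scanner output of 8 Agilent SurePrint G3 Human GE arrays, hybridized in one colour, with the processed signal of Agilent Feature Extraction 10.7.3.1 as an intensity per spot (background-subtracted by that software). The deposited value table held the same intensities (503808 of 503808 values equal). From these, flagged spots were left out, spots of a probe were averaged, log2 was taken and each array's 75th percentile over non-control spots subtracted. Of 42391 probes, 27227 (64.2%) were assigned to 20296 RefSeq genes by accession. No probe value was saturated. The number of arrays limits the precision.

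A probe counted as above background when the software marked most of its spots so. "At least" folds set the brighter value against the higher of the dim probe's signal and that array's lowest signal well above background. limma 3.58.1 (R 4.3.3) was fitted with genotype and time on the 6 treated arrays over 28947 probes above background on at least 1 array, with Benjamini-Hochberg adjustment over all of them, and was tested on simulated data. All other comparisons used a 2-fold rule. Nothing states that the arrays are separate cultures. Promoters came from RefSeq (GRCh38.p14) and were aligned with Biopython 1.88.

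Of pathway lists, all CXC ligands and receptors and the 3 genes with the largest difference in each other list were named, apart from an item that is not reported here. Likeness to CXCL10 was not computed, since it was at background throughout. The members and lists were chosen with earlier results of these data known.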

Additional observations from a re-analysis of the deposited data

Results flagged for a closer look

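For CXCL3, CXCL5 and CXCL8, all 3 treated p53+/+ arrays read lower than the array labelled p53+/+ 0 h and all 3 treated p53-/- arrays read higher than the p53-/- 0 h array. The mean change from 0 h in p53+/+ minus that in p53-/- cells was -3.47 for CXCL3, -9.11 for CXCL5 and -5.76 for CXCL8 on the log2 scale. This difference between the genotypes was not tested, and for CXCL8 the rises in p53-/- cells (0.32 to 0.33) were under 2 technical SDs. Those of CXCL3 were also small, at 0.22, 0.28 and 0.52 at 12, 24 and 48 h. The share of all genes that moved in this way is not given, so these members cannot be set against it. All 3 genotype differences in mean change use the array labelled p53+/+ 0 h. Its profile over all probes was closer to the p53-/- arrays than to the treated p53+/+ arrays. Without any 0 h array the treated p53+/+ minus p53-/- differences were -2.03, -7.51 and -3.60. Those of CXCL3 and CXCL5 include 1 p53+/+ array not well above background, and that of CXCL8 3 such arrays.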

How the results depend on the processing

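With 1 array per group there is no replicate of a condition, and time points stood in for replicates. Members lower in treated p53+/+ cells by limma numbered 2, and 4 (with CXCL1 and CXCL3) under quantile normalization, median scaling, no scaling, normexp, a signal floor and no filter on dim probes. Only 1, CXCL1, was called among probes above background on all 6 treated arrays, where CXCL3, CXCL5 and CXCL8 are not tested. Members higher by limma numbered 1, 0 without the 24 h arrays and 2 without the 48 h arrays. With each treated time point left out in turn, the CXCL2 difference ran from -0.73 to 0.055 and changed sign without the 24 h arrays (SE 0.30, limma adjusted p = 0.933). CXCL5 and CXCL8 passed under all 11 alternatives that tested them, with differences of -8.10 to -6.59 and -4.20 to -1.46, and CXCL16 in 11 of 12 (1.95 to 2.96). Without the 48 h arrays, members at least 2-fold higher in treated p53+/+ numbered 2 and those lower without overlap 5, against 1 and 3. Members at least 2-fold above 0 h in p53-/- cells numbered 1 without scaling, without the 12 h or without the 48 h arrays, against 0. Members above the array labelled p53+/+ 0 h numbered 1 under no scaling, normexp, a 3-fold rule or the p53-/- 0 h baseline, against 2. At 0 h, 0 members were lower without scaling, against 1. The other 97 recomputed member counts stayed within 1.5 times the reported ones. Over all probes, 42.6% of calls were higher under median scaling, 15.8% without scaling and 77.6% without the filter, against 57.7%. Without scaling the median of all genes shifted between genotypes by -0.37, -0.52 and -0.76 at 12, 24 and 48 h. The slide could not be fitted as a block, since there is 1. Pairing by replicate number was not possible because each group holds 1 array and so 1 replicate number. The fit sets arrays of one time point against each other, and without its time term 3 members were lower (CXCL3 with them, limma adjusted p = 0.049988) and 1 higher. The cause of these changes was not tested.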

Other observations

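The genes that flank the CXC cluster on chromosome 4 were looked at after their values were seen. AFP, which encodes a fetal serum protein, differed between treated p53+/+ and p53-/- cells by -2.03 on the log2 scale (SE 0.49, limma adjusted p = 0.0596) and read lower at each treated time point, but did not pass. RASSF6, which precedes CXCL8 in gene order and encodes a Ras-association domain protein, was higher in treated p53+/+ cells by 2.499 (SE 0.21, limma adjusted p = 0.00787). MTHFD2L, which follows CXCL2, differed by -0.06 (SE 0.24, limma adjusted p = 0.889). The EGF family genes that come next were higher or did not pass: EPGN by 2.41 (SE 0.19, limma adjusted p = 0.00684), AREG by 1.57 (SE 0.20, limma adjusted p = 0.0167) and BTC by 1.17 (SE 0.25, limma adjusted p = 0.0445), while EREG differed by -0.04 (SE 0.17, limma adjusted p = 0.900). PARM1 differed by 0.62 (SE 0.67, limma adjusted p = 0.553).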
